A study of Arabidopsis thaliana with 6 samples.

Results

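Expansins and xyloglucan endotransglucosylase/hydrolases (XTH) are 2 families of secreted proteins that change the plant cell wall. Here they were taken as 48 genes fixed by their locus identifiers: 26 expansin genes and 22 XTH genes. Of these, 36 are among the 17675 genes of the deposited table, 16 expansins and 20 XTH genes, and the other 12 were not analysed here. The rule itself uses no expression value, but the set was proposed with earlier results of these data known. The 48 are not the whole families, and the counts below are out of the 48. The analysed expansins comprise 12 of the 19 named α-expansins (EXPA), 2 of 3 named β-expansins (EXPB) and 2 of 4 named expansin-like genes (EXLA and EXLB). The analysed XTH genes comprise all 7 named genes of group I, 7 of 9 named genes of group II and all 6 named genes of group III. All 48 identifiers had a name in RefSeq.

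A growing plant cell is held back by cellulose microfibrils that are tied to one another through xyloglucan and embedded in pectin. Expansins loosen this network at acid pH without cutting any polymer. XTH enzymes cut a xyloglucan chain and join the free end to another chain or, in a few members, to water, so they can either loosen the wall or build new xyloglucan into it. Both families are known for their activity in expanding organs, and their RNA levels respond to auxin, brassinosteroid, gibberellin, light and touch.

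RNA-seq was carried out on Arabidopsis thaliana inflorescences of plants 3 weeks old, grown at 23 °C in days of 16 h light and 8 h dark, from which flowers at stage 7 and beyond were cut away; the labels call the tissue floral meristems. Every plant carried the arf3-29 mutation and the transgene ARF3:ARF3-GR, in which the ARF3 promoter drives the auxin response factor ARF3 fused to the steroid-binding domain of the glucocorticoid receptor (GR). That domain holds the fusion inactive until dexamethasone (DEX) is given. There were 3 libraries treated with DEX (10 µM in DMSO) and 3 labelled DMSO, both groups with 0.015% Silwet, a wetting agent. Each library held 10703769 to 14469527 reads over the listed genes. No library from plants lacking the fusion was analysed, and the sources used here give no time after treatment, so an effect of DEX itself and an effect of ARF3-GR cannot be told apart.

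ARF3 RNA was found in every library, at 242 to 258 reads per 1000000 (RPM) with DMSO and 140.4 to 149 RPM with DEX, and reads of the transgene and of the mutant allele cannot be told apart. The 8 young-flower markers, among them LFY, AP1 and STM, summed to 1097 to 1168 RPM with DMSO and 1074 to 1169 RPM with DEX. Of these markers 2 were higher with DEX (25%) and 3 lower (37.5%), beside 29.6% and 28.1% of all genes. The 4 pollen and 3 root hair markers were not analysed here. The 4 tapetum markers summed to 12.9 to 14.9 RPM with DMSO and 21.8 to 24.9 RPM with DEX, and one of them, MS2, was at 0 in all DMSO libraries. MS2 and AMS are in the table through their DEX values alone, which favours a rise. A9 had 4.07 ± 0.403 RPM with DMSO and 9.36 ± 1.17 RPM with DEX (SD, n = 3). LAP3 did not pass the test, at 8.91 ± 0.958 and 8.63 ± 0.860 RPM. The 3 leaf photosynthetic markers summed to 7767 to 7977 RPM with DMSO and 9009.8 to 9453 RPM with DEX. The 4 xylem markers summed to 15.8 to 19.9 RPM with DMSO and 8.78 to 10.5 RPM with DEX. Of these, 2 fell, IRX3 and XCP1 (50%, beside 28.1% of all genes), and IRX1 and VND7 did not pass the test. DEX-3 stood somewhat apart: its rank correlation was 0.985 with DEX-1 and 0.987 with DEX-2, where every other pair of replicates gave 0.991. The part of these differences in the results below was not tested, and in whole inflorescences fewer cells of a type and less RNA per cell cannot be told apart.

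Expansins past the test changed in one direction and XTH genes in both. Of 16 expansin genes, 12 fell (75%), none rose and 4 did not pass the test. Of 20 XTH genes, 8 rose (40%), 7 fell (35%) and 5 did not pass. Of all genes 29.6% rose and 28.1% fell, so change in both directions is not particular to XTH genes. Summed expansin RNA was 1616, 1677 and 1661 RPM in DMSO-1, DMSO-2 and DMSO-3, and 571, 554 and 512 RPM in DEX-1, DEX-2 and DEX-3. All DEX sums lay below all DMSO sums, and the means of 1652 ± 31.8 RPM (SD, n = 3, as for all values with ±) and 546 ± 30.6 RPM differed 3.03-fold. Summed XTH RNA was 2428, 2356 and 2413 RPM with DMSO and 1848, 1887 and 1864 RPM with DEX, a 1.29-fold difference of the means. Without XTH9, its most abundant member, the XTH sum was 966 ± 10.2 RPM with DMSO and 949 ± 59.8 RPM with DEX.

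A gene was taken as past the test at a Benjamini-Hochberg adjusted p under 0.05 over all 17675 genes in limma, fitted to log2(RPM + 1). On that scale the fold changes of weakly expressed genes are understated. Of all genes tested, 57.7% passed, 29.6% higher and 28.1% lower in DEX, against 75% of the 36 members, 22.2% higher and 52.8% lower. Of the expansins 75% were lower, and of the XTH genes 35% were lower and 40% higher. A fall of at least 1 on the log2 scale was seen for 5.23% of all genes and for 8 of 16 expansins and 4 of 20 XTH genes, and a rise of that size for 8.84% of all genes, no expansin and 3 XTH genes. The median log2 fold change was -0.98 over the expansins, 0.16 over the XTH genes and 0.004 over all genes. All DEX libraries lay below all DMSO libraries for 19 of the 36 members (30.7% of all genes) and above them for 9 (32.1% of all genes). The count of 0 risen expansins was the same at an unadjusted p under 0.05 (limma) and with edgeR and DESeq2, with 0 genes each.

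**Figure D1:**
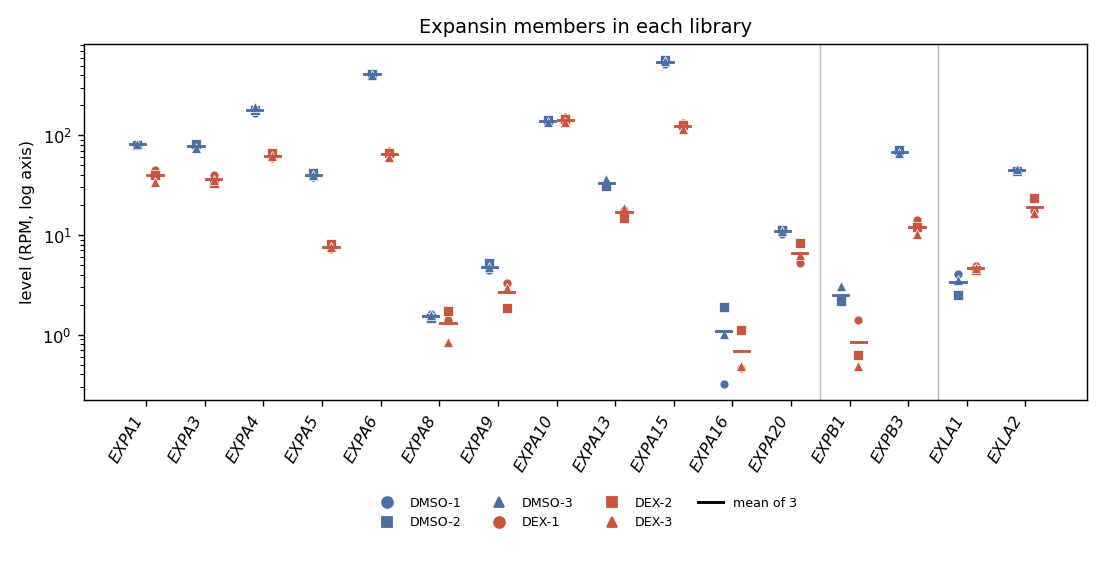
Level of each of the 16 expansin members (RPM, log axis) in the 3 DMSO libraries (blue) and the 3 DEX libraries (red), with bars at the mean of each group and grey lines between α-expansins, β-expansins and expansin-like genes. For the 12 members that fell the red points lie below all blue points, and for EXPA10 the points overlap near 140.

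Among the α-expansins, EXPA6, EXPA5 and EXPA15 fell by more than 2 on the log2 scale. EXPA15 (AT2G03090) had 523, 568 and 559 RPM with DMSO and 132, 127 and 117 RPM with DEX. EXPA6 (AT2G28950) had 426, 413 and 403 RPM with DMSO and 70.1, 65.9 and 60.04 RPM with DEX. In both genes every DEX library lay far below every DMSO library. The log2 fold change was -2.13 for EXPA15 (SE 0.0650, limma adjusted p = 2.59e-14) and -2.65 for EXPA6 (SE 0.0694, limma adjusted p = 3.61e-15), which is a 4.39-fold and a 6.34-fold difference of the means. EXPA5 (AT3G29030), a gene known to act in organ growth under brassinosteroid, had 37.8, 41.5 and 40.0 RPM with DMSO and 7.19, 8.16 and 7.63 RPM with DEX. Its groups did not overlap either, and its log2 fold change was -2.24 (SE 0.117, limma adjusted p = 3.28e-11). EXPA4 (AT2G39700) had 168, 179.9 and 192 RPM with DMSO and 58.7, 66.7 and 62.0 RPM with DEX. All 3 DEX values of EXPA4 were below 70 RPM, with a log2 fold change of -1.51 (SE 0.0761, limma adjusted p = 2.03e-11).

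A second set of α-expansins fell by about 1 on the log2 scale or less. EXPA1 (AT1G69530), known from guard cell walls and stomatal opening, fell from 81.3 ± 1.52 to 39.9 ± 5.51 RPM (limma adjusted p = 7.63e-08). EXPA3 (AT2G37640) fell from 78.0 ± 4.10 to 36.3 ± 3.71 RPM and EXPA13 (AT3G03220) from 33.4 ± 2.61 to 17.1 ± 2.09 RPM. The weakly expressed EXPA20 (AT4G38210) fell from 10.9 ± 0.567 to 6.61 ± 1.55 RPM (limma adjusted p = 0.00299). EXPA9 (AT5G02260) had 4.50, 5.20 and 4.74 RPM with DMSO and 3.27, 1.87 and 2.94 RPM with DEX (a log2 change of -0.67, limma adjusted p = 0.00907). Its groups did not overlap, but the call rested on DEX-2, without which the limma adjusted p was 0.0542.

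Of the 11 expansins with at least 10 RPM in a group, 10 fell and EXPA10 did not pass the test. EXPA5 and EXPA20 reach 10 RPM through their DMSO means alone, which favours a fall. Those means were 39.8 and 10.9 RPM with DMSO, against 7.66 and 6.61 RPM with DEX. The share of all genes at that level was not computed. With a minimum of 5 RPM in 3 libraries, 63.3% of the 14447 genes left passed, 4499 genes lower and 4642 higher with DEX. EXPA10 is described in full because it did not pass, a choice made after its values were seen. EXPA10 (AT1G26770), known to promote leaf growth, had 138, 143 and 136 RPM with DMSO and 152, 145 and 135 RPM with DEX. The groups overlapped, and the 95% interval of the log2 difference was -0.10 to 0.19 (limma adjusted p = 0.566). Its share of the summed expansin RNA was 8.52%, 8.55% and 8.17% with DMSO and 26.6%, 26.1% and 26.4% with DEX. Per length of exon, EXPA15 (383 ± 16.7 RPM per kb), EXPA6 (260.5 ± 7.25), EXPA4 (119.9 ± 8.13) and EXPA10 (88.4 ± 2.54) were the 4 highest expansins with DMSO, in that order and with no overlap between neighbours. With DEX, EXPA10 (91.5 ± 5.37 RPM per kb) and EXPA15 (87.3 ± 5.44) were highest and overlapped each other, and EXPA4 (41.6 ± 2.69) and EXPA6 (41.1 ± 3.17) followed and also overlapped. The other 2 α-expansins that did not pass, EXPA8 (AT2G40610) and EXPA16 (AT3G55500), had group means of 0.688 to 1.55 RPM, where few reads limit what can be detected: their 95% intervals were -0.64 to 0.33 and -0.87 to 0.37.

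The promoters of 3 of the 4 expansins that fell by more than 2 on the log2 scale and of EXPA10, which did not pass the test, are shown because each holds a motif searched for. They were chosen after their values and motifs were seen, and the promoter of EXPA15, the other of the 4, holds no such motif. Each runs from 250 bases before to 50 bases after the start of the gene in the RefSeq annotation of TAIR10.1, 5′ to 3′ on the strand of the gene. Capitals mark matches on either strand to TGTCTC or TGTCGG, both bound by auxin response factors, to the G-box CACGTG, and to CGTGTG or CGTGCG, both bound by the brassinosteroid factors BZR1 and BES1. TGTCTC and TGTCGG share their first 4 bases, and matches to CACGTG and CGTGTG can overlap each other.
EXPA6, chromosome 2, minus strand: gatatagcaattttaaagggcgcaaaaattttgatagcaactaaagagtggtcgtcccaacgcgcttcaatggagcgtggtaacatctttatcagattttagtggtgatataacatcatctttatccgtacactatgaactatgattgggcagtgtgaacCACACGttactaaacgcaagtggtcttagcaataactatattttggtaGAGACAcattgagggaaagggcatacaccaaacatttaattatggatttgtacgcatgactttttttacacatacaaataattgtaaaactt
EXPA5, chromosome 3, minus strand: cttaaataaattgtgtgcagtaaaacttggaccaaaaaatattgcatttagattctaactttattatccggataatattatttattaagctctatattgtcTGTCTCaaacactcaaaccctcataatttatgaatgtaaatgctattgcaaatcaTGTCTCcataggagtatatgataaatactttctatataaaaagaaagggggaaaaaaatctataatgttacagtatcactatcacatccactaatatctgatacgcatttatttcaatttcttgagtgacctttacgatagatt
EXPB3, chromosome 4, minus strand: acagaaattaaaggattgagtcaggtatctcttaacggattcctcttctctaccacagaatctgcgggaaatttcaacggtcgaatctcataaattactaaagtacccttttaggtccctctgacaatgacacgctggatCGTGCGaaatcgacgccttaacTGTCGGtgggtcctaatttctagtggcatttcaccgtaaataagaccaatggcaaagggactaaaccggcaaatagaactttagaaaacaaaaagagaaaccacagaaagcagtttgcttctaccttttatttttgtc
EXPA10, chromosome 1, plus strand: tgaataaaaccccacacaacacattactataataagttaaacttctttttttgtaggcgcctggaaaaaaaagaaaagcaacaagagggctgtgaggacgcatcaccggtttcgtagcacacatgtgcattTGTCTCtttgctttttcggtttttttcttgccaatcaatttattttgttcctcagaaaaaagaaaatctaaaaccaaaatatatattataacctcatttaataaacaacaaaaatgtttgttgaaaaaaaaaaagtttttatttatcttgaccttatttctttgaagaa

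In these windows EXPA6 holds TGTCTC 42 bases and CGTGTG 90 bases before the start, and EXPA5 holds TGTCTC 94 and 149 bases before it. EXPB3 holds TGTCGG 88 bases and CGTGCG 110 bases before the start. EXPA10, whose level did not pass the test, holds TGTCTC 119 bases before it, so a match was found both in genes that fell and in this one. Over the 36 members, TGTCTC was found in 13.9% of promoters, against 13.3% of 17369 promoters of genes in the table, and TGTCGG in 5.56% against 5.62%. CGTGTG was found in 6 member promoters (16.7%, against 6.74%), 4 of them in the 19 members that fell. CACGTG was found in 0 of 36 (against 8.98%) and CGTGCG in EXPB3 alone, 2.78% (against 2.09%). Of the 8 members that rose, XTH6 holds TGTCTC 238 bases before the start and XTH31 holds TGTCGG 24 bases after it, and the other 6 windows, those of XTH24 and XTH27 among them, hold none of the 5 motifs.

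Both β-expansins fell. EXPB3 (AT4G28250) had 66.0, 70.6 and 66.4 RPM with DMSO and 14.01, 12.1 and 10.3 RPM with DEX, a clear gap between the groups. Its log2 fold change was -2.40 (SE 0.112, limma adjusted p = 7.20e-12). EXPB1 (AT2G20750) had 2.17, 2.20 and 3.08 RPM with DMSO and 1.401, 0.622 and 0.490 RPM with DEX (a log2 change of -0.94, limma adjusted p = 0.00325). Of the expansin-like genes, which share the fold of expansins but have no known loosening activity, EXLA2 (AT4G38400) had 43.6, 43.8 and 46.5 RPM with DMSO and 17.4, 23.8 and 16.7 RPM with DEX. All DEX values of EXLA2 were below those with DMSO, with a log2 fold change of -1.19 (SE 0.121, limma adjusted p = 2.45e-07). EXLA1 (AT3G45970) had 4.10, 2.49 and 3.56 RPM against 4.86, 4.42 and 4.62 RPM with DEX. These groups did not overlap, but the log2 difference of 0.38 (95% interval -0.04 to 0.79) missed the threshold (limma adjusted p = 0.108). Non-overlapping groups were found for 62.9% of all genes.

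**Figure D2:**
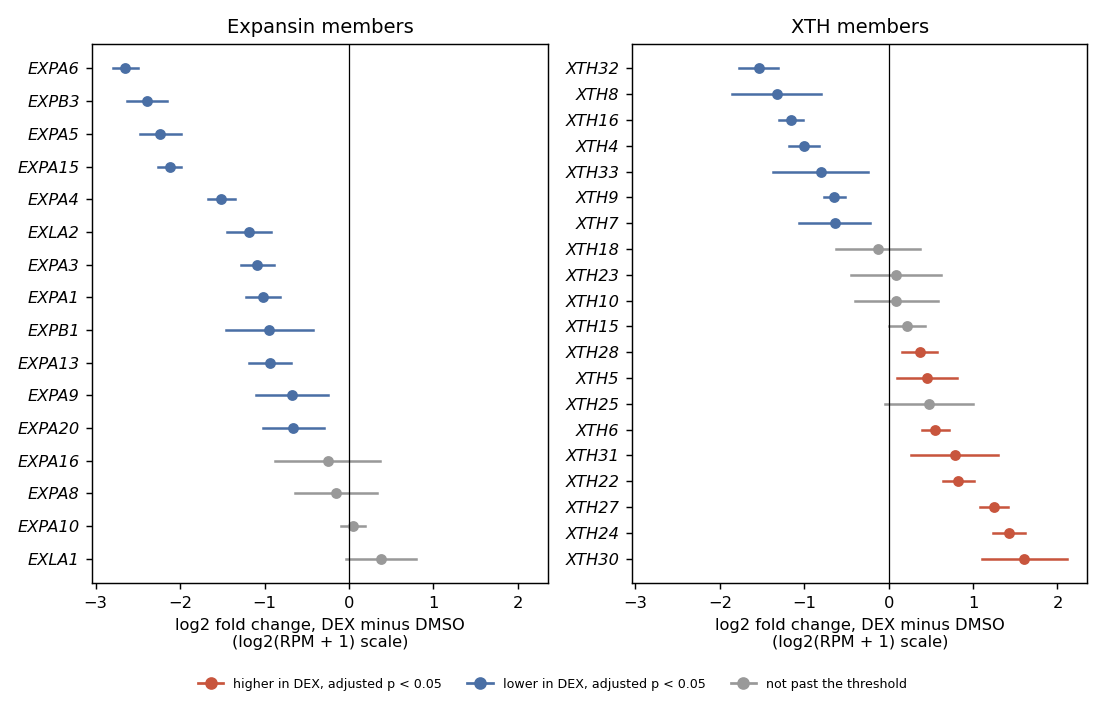
Log2 fold change (DEX minus DMSO, on the log2(RPM + 1) scale) with its 95% interval for the 16 expansins (left) and the 20 XTH genes (right), in blue for genes that fell, red for genes that rose and grey for genes not past the threshold. The expansins run from -2.65 for EXPA6 to 0.38 for EXLA1, with no red point, and the XTH genes from -1.54 for XTH32 to 1.61 for XTH30.

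Group I of the XTH family holds the most abundant member. XTH9 (AT4G03210), known from shoot apices, had 1459.6, 1402 and 1439 RPM with DMSO and 882, 888 and 981 RPM with DEX. It fell in every DEX library (log2 fold change -0.65, SE 0.0579, limma adjusted p = 4.59e-08), and its share of XTH RNA was 59.7 ± 0.327% with DMSO and 49.1 ± 3.04% with DEX. XTH4 (AT2G06850) fell from 253 ± 7.75 to 127 ± 16.6 RPM (limma adjusted p = 1.54e-08), and DEX-3 was its lowest library at 107 RPM. XTH6 (AT5G65730) moved the other way, with 145, 141 and 145 RPM with DMSO and 220.5, 229 and 187 RPM with DEX (a log2 change of 0.55 with SE 0.0752; limma adjusted p = 7.05e-06). Per length of exon, XTH6 lay below XTH9, XTH16 and XTH4 with DMSO (97.7 ± 1.71 RPM per kb). With DEX it lay below XTH9 alone (144 ± 15.3) and overlapped XTH24 (120.1 ± 12.01).

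The other group I members had under 10 RPM. XTH8 (AT1G11545) had 5.87, 3.66 and 2.53 RPM with DMSO and 1.21, 0.760 and 0.840 RPM with DEX, so the lowest DMSO library was still above every DEX library (log2 fold change -1.33, SE 0.250, limma adjusted p = 0.000217). XTH7 (AT4G37800) fell from 4.71 ± 0.815 to 2.65 ± 0.385 RPM (limma adjusted p = 0.0106). XTH5 (AT5G13870) had 5.55, 5.42 and 6.56 RPM with DMSO and 8.03, 7.39 and 9.73 RPM with DEX. Its rise passed the test (limma adjusted p = 0.0282) but not without DMSO-1, DMSO-2 or DEX-3, where the adjusted p was 0.0776, 0.0847 and 0.118. XTH10 (AT2G14620) had 1.13 ± 0.380 and 1.25 ± 0.0592 RPM and did not pass.

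In group II, 2 genes rose (28.6%), 1 fell (14.3%) and 4 did not pass, beside 29.6% of all genes higher and 28.1% lower. XTH24 (AT4G30270), first described as the meristem gene MERI5, had 50.4, 50.6 and 59.3 RPM with DMSO and 153, 154 and 129 RPM with DEX. All 3 DEX libraries were above 120 RPM, and the log2 fold change was 1.43 (SE 0.0885, limma adjusted p = 3.46e-10). XTH22 (AT5G57560), the touch-induced gene TCH4, had 45.03, 46.1 and 54.5 RPM with DMSO and 86.0, 86.2 and 87.7 RPM with DEX (a log2 change of 0.83 with SE 0.0852; limma adjusted p = 2.62e-07). The DEX values of XTH22 lay close together, at 86.6 ± 0.939 RPM, and above all DMSO values. XTH16 (AT3G23730) fell, from 258, 242 and 253 RPM with DMSO to 104, 112 and 120.4 RPM with DEX (a log2 change of -1.16 with SE 0.0690; limma adjusted p = 1.93e-10).

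The group II genes that did not pass include the weakly expressed neighbours of XTH24 and XTH22. XTH18 (AT4G30280), beside XTH24 on chromosome 4, had 1.13 ± 0.162 and 0.969 ± 0.310 RPM (95% interval of the log2 difference -0.62 to 0.37, limma adjusted p = 0.674). XTH25 (AT5G57550), beside XTH22 on chromosome 5, had 1.24 ± 0.225 and 2.20 ± 0.996 RPM (interval -0.05 to 0.996, limma adjusted p = 0.110), and passed without DEX-1 (adjusted p = 0.0413). XTH15 (AT4G14130), a gene induced by shade, had 67.3, 69.5 and 70.4 RPM with DMSO and 85.1, 92.7 and 66.3 RPM with DEX. DEX-3 lay below all DMSO values and the other 2 DEX libraries above them, so the groups overlapped (0.22, interval 0.01 to 0.43, limma adjusted p = 0.0711), and without DEX-3 the difference was 0.36 (adjusted p = 3.63e-05). The annotated XTH15 overlaps a gene on the other strand, AT4G14120, over 382 bases, and without strand the reads there cannot be assigned. XTH23 (AT4G25810) had 0.877 ± 0.435 and 0.967 ± 0.243 RPM and did not pass.

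**Figure D3:**
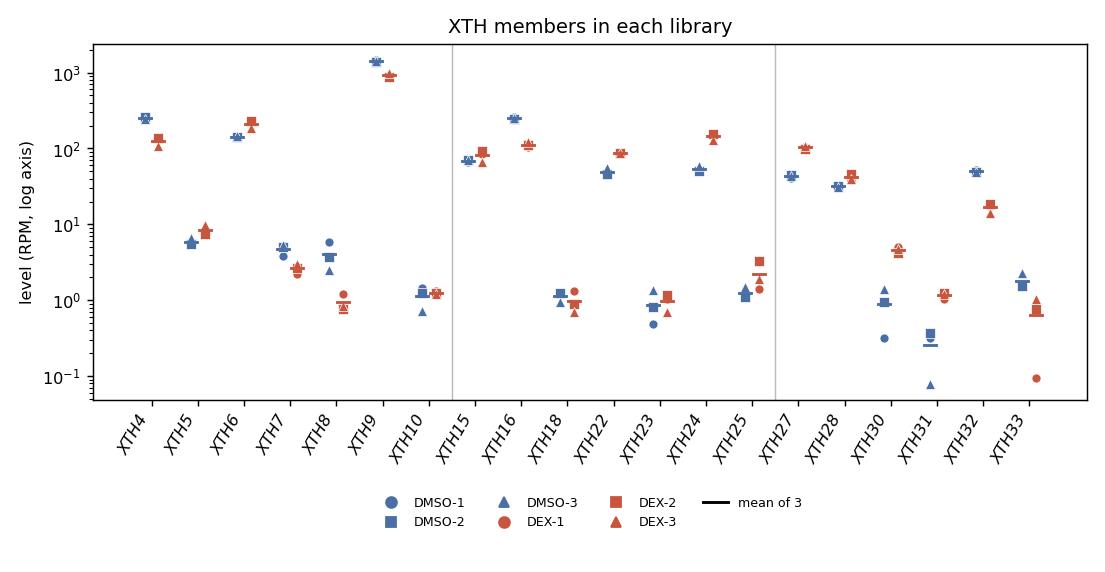
Level of each of the 20 XTH members (RPM, log axis) in the 3 DMSO libraries (blue) and the 3 DEX libraries (red), with bars at the group means and grey lines between groups I, II and III. XTH9 stands highest in all 6 libraries, XTH24 and XTH27 have red points above blue ones, and XTH16 and XTH32 have red points below.

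All 6 group III genes passed the test, 4 higher (66.7%) and 2 lower (33.3%), beside 29.6% of all genes higher and 28.1% lower. XTH27 (AT2G01850), known from leaf vein development, had 40.5, 44.3 and 43.9 RPM with DMSO and 104, 98.7 and 107 RPM with DEX (a log2 change of 1.25 with SE 0.0779; limma adjusted p = 3.81e-10). XTH28 (AT1G14720), known from the growth of stamen filaments, had 32.2, 32.5 and 31.4 RPM with DMSO and 38.6, 46.7 and 40.0 RPM with DEX (a log2 change of 0.37, limma adjusted p = 0.00362). Both had no overlap between the groups. XTH30 (AT1G32170) had 0.322, 0.953 and 1.42 RPM with DMSO and 4.95, 4.15 and 4.76 RPM with DEX (a log2 change of 1.61 with SE 0.238; limma adjusted p = 1.92e-05). XTH31 (AT3G44990), an enzyme known to hydrolyse xyloglucan, had 0.322, 0.366 and 0.0790 RPM with DMSO and 1.03, 1.24 and 1.19 RPM with DEX (limma adjusted p = 0.0110). XTH31 is in the table through its DEX values alone, which favours a rise. It is the 1 member with no library of the other group at 1 RPM. XTH30 reached 1 RPM in 3 DEX libraries and 1 DMSO library. EXPB1, XTH8 and XTH33, which fell, reached it in 3 DMSO libraries and 1 DEX library each. Without their higher group these genes would not be listed either, which favours their calls.

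XTH32 (AT2G36870) fell, with 52.3, 49.0 and 49.3 RPM with DMSO and 17.4, 18.5 and 14.2 RPM with DEX (a log2 change of -1.54 with SE 0.109; limma adjusted p = 1.98e-09). XTH33 (AT1G10550), a member anchored in the plasma membrane, had 1.53, 1.54 and 2.29 RPM with DMSO and 0.0934, 0.760 and 1.05 RPM with DEX (a log2 change of -0.81, limma adjusted p = 0.0160). Its call was lost without DMSO-3 (adjusted p = 0.0801) and without DEX-1 (adjusted p = 0.0891).

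Summed over the members of each group, XTH RNA was lower with DEX in group I and higher in group III. No test was made on these sums. Group I had 1846 ± 30.9 RPM with DMSO and 1269 ± 20.0 RPM with DEX, group II had 425 ± 15.04 and 429 ± 22.2 RPM, and group III had 128 ± 0.731 and 168 ± 2.14 RPM. In group II, where XTH16 fell and XTH24 and XTH22 rose, the sums of the libraries overlapped, at 411 to 441 and 406 to 450.3 RPM. Sums of RPM weigh genes by their length as well as by their level.

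**Figure D4:**
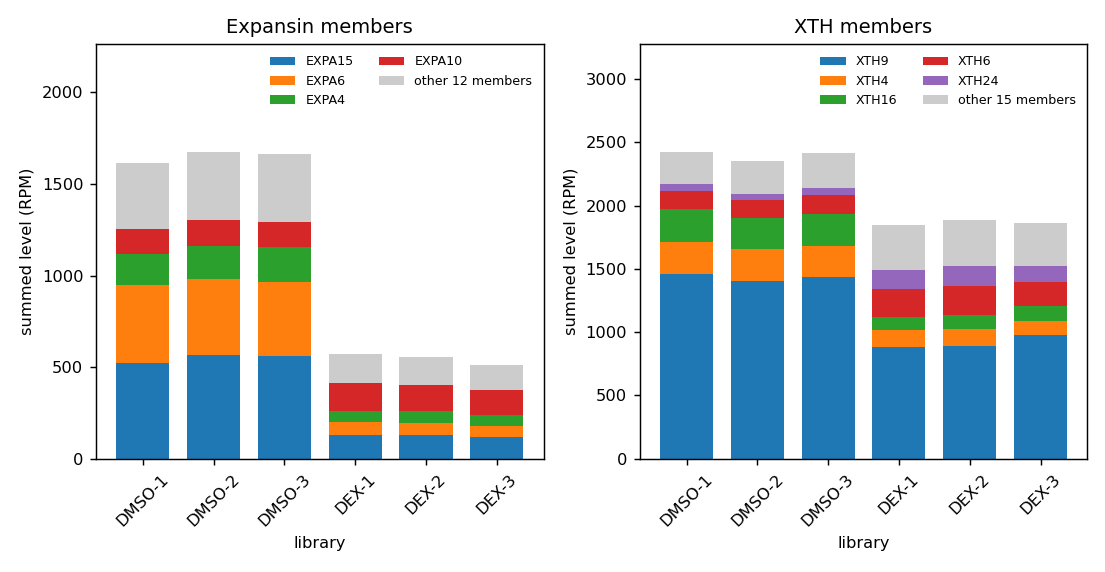
Summed level (RPM) of the 16 expansins (left) and the 20 XTH genes (right) in each library, stacked by the most abundant members. Expansin sums are 1616 to 1677 RPM with DMSO and 512 to 571 RPM with DEX, with EXPA10 layers of like height, and in the XTH sums the XTH9 layers are thinner and the XTH6 and XTH24 layers thicker with DEX.

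Genes with identical stretches can share reads. The longest identical stretches between transcripts were 68 bases for XTH18 and XTH19, 57 bases for EXLA1 and EXLA3, and 51 bases for XTH17 and XTH19. In each of these pairs at least 1 gene was not analysed here, so the values of XTH18 and EXLA1 are less certain than those of the others. Among pairs with both genes in the table the longest were 33 bases, for EXPA10 and EXPA15, and 32 bases, for EXPA1 and EXPA10.

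Other genes of xyloglucan, and a separate list of GH9 endoglucanases, were mostly lower with DEX, beside 28.1% of all genes. Of 13 genes of xyloglucan synthesis 11 fell and 2 did not pass, with a median log2 fold change of -0.88. The galactosyltransferase gene XLT2 (AT5G62220) fell from 21.1 ± 0.958 to 8.47 ± 0.794 RPM (limma adjusted p = 4.18e-07), the glucan synthase gene CSLC8 (AT2G24630) from 19.4 ± 0.916 to 8.72 ± 1.26 RPM, and the xylosyltransferase gene XXT5 (AT1G74380) from 42.6 ± 2.36 to 20.4 ± 2.56 RPM. All 5 genes for enzymes that trim xyloglucan in the wall fell (median -0.90). Among them were the fucosidase gene AXY8 (AT4G34260), from 47.8 ± 2.93 to 17.8 ± 1.06 RPM, the glucosidase gene BGLC3 (AT5G04885), from 126 ± 2.03 to 50.4 ± 0.394 RPM, and the xylosidase gene XYL1 (AT1G68560), from 376 ± 2.91 to 201 ± 13.8 RPM. Of 13 endoglucanases of the GH9 family 7 were analysed and all 7 fell (median -1.44). GH9C2 (AT1G64390) fell from 94.0 ± 0.898 to 16.1 ± 1.53 RPM, GH9B7 (AT1G75680) from 105 ± 1.33 to 36.2 ± 3.51 RPM and GH9B8 (AT2G32990) from 3.13 ± 0.569 to 0.517 ± 0.438 RPM. GH9B8 is in the table through its DMSO values alone, which favours a fall.

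Genes that act on pectin are given beside the 29.6% of all genes that were higher and the 28.1% that were lower. Of 11 pectate lyase genes, whose products cut pectin, 8 fell (72.7%) and 3 did not pass (median -1.30). AT1G67750 fell from 29.8 ± 3.86 to 3.998 ± 0.176 RPM, AT4G24780 from 81.2 ± 1.66 to 17.5 ± 0.814 RPM and AT1G04680 from 158 ± 9.45 to 40.1 ± 5.75 RPM. Of 8 pectin methylesterase genes 4 rose (50%), 3 fell (37.5%) and 1 did not pass (median 0.13). PME34 (AT3G49220) fell from 82.0 ± 7.26 to 25.3 ± 3.10 RPM and PME41 (AT4G02330) from 15.1 ± 1.68 to 7.07 ± 0.790 RPM. PME17 (AT2G45220) rose from 0.385 ± 0.202 to 2.16 ± 0.737 RPM. PME17 and PME35 (AT3G59010), another of the 4 that rose, are in the table through their DEX values alone, which favours a rise. Of 2 polygalacturonase genes, PGX3 (AT1G48100), known from stomata, fell from 48.8 ± 1.89 to 18.5 ± 2.64 RPM. No list was tested against other genes.

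**Figure D5:**
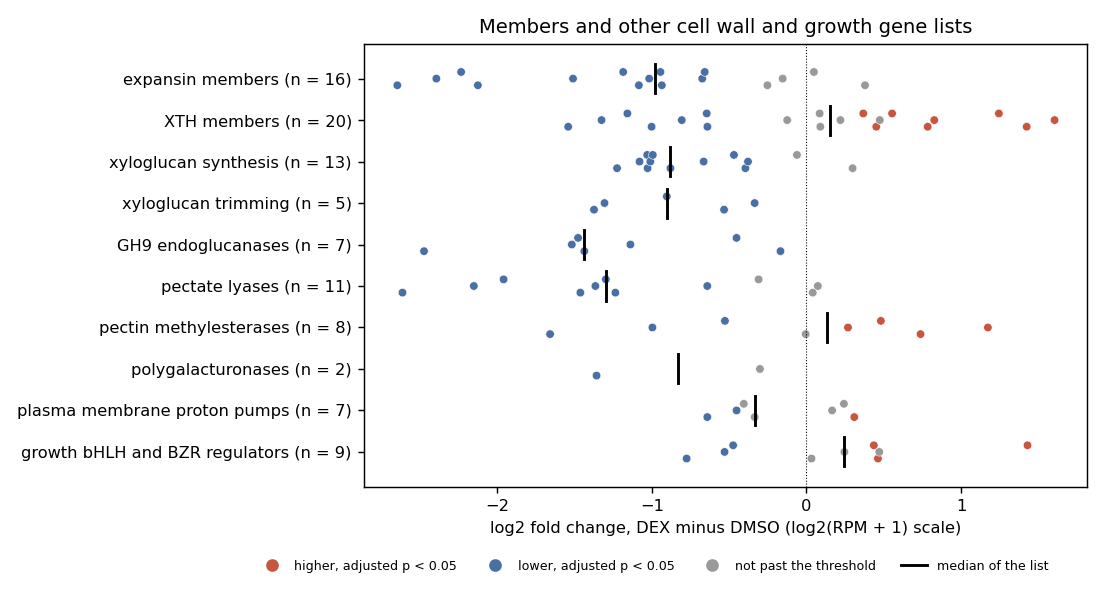
Log2 fold change (DEX minus DMSO, log2(RPM + 1) scale) of each gene in the expansin and XTH families and in 8 other lists, blue for genes that fell, red for genes that rose, grey for genes not past the threshold, with a black bar at the median of each list. The points of the expansins, xyloglucan synthesis and trimming, GH9 endoglucanases and pectate lyases lie mostly left of 0, and those of the XTH genes and pectin methylesterases lie on both sides.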

How the data were processed

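Reads were mapped with TopHat and counted with HTSeq, per the submitters' processing notes; versions, settings, genome build and strandedness are not stated in the sources at hand. The authors deposited RPM (reads per 1000000) for 17675 genes, each library adding up to 1000000. Every listed gene reaches 1 RPM in at least 3 libraries, so weaker genes were not analysed here.

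All values came out as whole reads (100% within 0.01), and 3 reads equal 0.207 to 0.280 RPM; this covers counting error only. Groups and replicate numbers came from the labels, and gene names, exon lengths and promoters from RefSeq (TAIR10.1). RPM + 1 values on the log2 scale were fitted with limma 3.58.1 (R 4.3.3, trended prior variance, two-sided test, Benjamini-Hochberg over all genes, threshold 0.05). The procedure was run on simulated counts with few changed genes and equal spread in all libraries, a setting unlike these data. Alternatives were pseudocounts of 0.1 and 5, a minimum of 5 RPM or none, TMM or median-of-ratios scaling, limma untrended or robust, a replicate block, each library left out, and 2 count tests on the recovered reads, edgeR 4.0.16 (quasi-likelihood; 10146 genes called, limma 10204) and DESeq2 1.42.0 (9691).

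Members and gene lists were chosen with earlier results of these data known. Values in every library are given for the 8 lowest and 8 highest log2 fold changes past the threshold, the 2 members of highest RPM per kb in each class and adjusted p of 0.02 to 0.10; each list gives up to 3 genes past the threshold by size of change. Sampling noise did not account for the spread of replicates (chi-square 2.80 to 12.0 per degree of freedom). Nothing says that they came from separate plants, so the p-values reflect the spread among these libraries alone, which may be technical. No batch is given.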

Additional observations from a re-analysis of the deposited data

How the results depend on the processing

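The 12 fallen expansins, 8 risen XTH genes and 7 fallen XTH genes kept these counts with other pseudocounts, scalings, moderation, edgeR and DESeq2. Removing the minimum of 1 RPM changes nothing by construction, since every listed gene already meets it. With a minimum of 5 RPM, which leaves 22 members, 10 expansins and 4 XTH genes fell and 6 XTH genes rose. With 1 library left out, 11 to 12 expansins and 6 to 7 XTH genes fell, 7 to 9 XTH genes rose, and 0 expansins rose in all of these settings. With the replicate number as a block the counts were again 12, 8, 7 and 0. Deviations of libraries with the same number gave correlations of -0.0471, 0.0622 and 0.0291, and those with different numbers -0.105 to 0.0751. No pairing by number was seen, but with 3 libraries per group its absence cannot be shown. Of 598 member values recomputed, 36 of them without the minimum and so identical, 590 kept their side of the threshold, 6 lost and 2 gained it, and none of the called ones changed sign. The changes concern EXPA9, XTH5, XTH15, XTH25 and XTH33, each with 1 library left out. The log2 fold change of weak genes moves with the pseudocount. With pseudocounts of 5 and 0.1 it was 0.71 and 2.42 for XTH30, 0.23 and 1.93 for XTH31, -0.59 and -1.93 for XTH8, -0.36 and -1.57 for EXPB1, and -0.27 and -1.69 for XTH33. Depth limits the 9 members under 3 RPM in both group means, of which 6 did not pass.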

Other observations

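Beside the 29.6% of all genes that were higher and the 28.1% that were lower, the shares among proton pump and growth regulator genes are no result about these groups. Of 7 plasma membrane proton pump genes, whose products acidify the wall, 1 rose (14.3%), 2 fell (28.6%) and 4 did not pass. AHA1 (AT2G18960) rose from 318 ± 2.89 to 395 ± 4.32 RPM (limma adjusted p = 0.000137), AHA2 (AT4G30190) fell from 121 ± 6.76 to 88.1 ± 1.34 RPM and AHA11 (AT5G62670) fell from 66.3 ± 4.90 to 42.1 ± 2.38 RPM. Of 9 measured growth regulators of the bHLH and BZR families, 3 rose (33.3%), 3 fell (33.3%) and 3 did not pass. PIF5 (AT3G59060), a factor that accumulates in darkness, rose from 6.20 ± 1.17 to 18.3 ± 2.20 RPM (limma adjusted p = 6.55e-07). The small bHLH gene PRE6 (AT1G26945) fell from 8.94 ± 0.998 to 4.87 ± 1.29 RPM, and the brassinosteroid factor gene BES1 (AT1G19350) fell from 73.0 ± 3.15 to 51.1 ± 11.3 RPM (limma adjusted p = 0.00135).

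Of 21 expansin and XTH genes outside the 48, XTH11 (AT3G48580) and XTH29 (AT4G18990) are in the table and both rose. Neither is counted in the family and group shares or sums given above. XTH11 rose from 2.53 ± 0.849 to 11.5 ± 0.455 RPM (limma adjusted p = 2.79e-07). XTH29 rose from 0.126 ± 0.0809 to 1.63 ± 0.277 RPM and is in the table through its DEX values alone, which favours a rise.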
